A study of Arabidopsis thaliana with 3 samples.

Results

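BABY BOOM (BBM) and JACKDAW (JKD) are transcription factors of the stem cell niche of the Arabidopsis root, and their signals were examined in 3 samples of the quiescent center (QC). The members were found by name in the array's annotation. BBM (AT5G17430) and JKD (AT5G03150) each had 1 probe set that named that gene alone, so the 2 genes are 2 of the 13356 genes with a probe set of their own. Neither probe set is of a type marked as able to bind several transcripts. Both genes lie on chromosome 5 of TAIR10.1, and 0 other genes of that annotation overlap either of them.

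The QC consists of a few slowly cycling cells at the root tip that keep the surrounding initials in a stem cell state. BBM belongs to the PLETHORA clade of AP2-domain proteins, whose members act together downstream of auxin to establish and maintain the root meristem, and it is also known for inducing embryos when it is overexpressed. JKD belongs to the BIRD family of C2H2 zinc finger proteins. It binds SHORT-ROOT (SHR) and SCARECROW (SCR), helps to hold SHR in the cell layer around the stele and to keep SCR active in the QC and the ground tissue, and acts from inner layers on the patterning of hair and hairless cells in the epidermis.

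All 3 samples formed 1 group, QC: protoplasts of Col-0 plants that carried WOX5:GFP, taken from roots 5 days after stratification and sorted for GFP. The WOX5 promoter is active in the QC, and cells that entered the gate are QC cells only as far as that reporter marks them. Each sample was hybridised to 1 ATH1 array, and the deposited values were MAS5 signals, a linear intensity without a unit. No other cell type was on these arrays, so no contrast between tissues could be made. Nothing in the labels states that the samples were grown or sorted separately, and the p-values therefore cover the spread among these 3 arrays alone, part or all of which may be technical. In the reported fit that spread was estimated from all probe sets of similar signal. A p-value therefore does not rest on the SD printed beside it.

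BBM gave a signal well inside the upper part of every array. Its signals were 434, 507 and 595 in replicates 1 to 3, a mean of 512 ± 80.4 (SD, n = 3). Replicate 3 was the highest array and replicate 1 the lowest, and the highest value was 1.37 times the lowest. Among all 22810 probe sets of an array, BBM lay at percentile 81.8 in replicate 1, 84.3 in replicate 2 and 86.3 in replicate 3, which averaged 84.1 ± 2.24 (SD, n = 3). Between 3128 and 4148 probe sets per array had a higher signal. Set against the median of its own array, BBM was 5.65, 6.22 and 7.32 times as high in replicates 1 to 3.

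JKD gave a signal close to the middle of the arrays. Replicates 1 to 3 gave signals of 111, 88.1 and 138, a mean of 112 ± 24.997 (SD, n = 3). Replicate 3 was again the highest, but replicate 2 was the lowest, and the highest value was 1.57 times the lowest. JKD lay at percentile 56.9, 51.5 and 60.3 in replicates 1 to 3, on average 56.2 ± 4.44 (SD, n = 3). It stood above the array median by 1.45 times in replicate 1, 1.08 times in replicate 2 and 1.70 times in replicate 3, so that in replicate 2 it was nearly at the median. The signal of a probe set also depends on how well its probes bind, and the distance between BBM and JKD is therefore no measure of which transcript was more abundant.

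**Figure D1:**
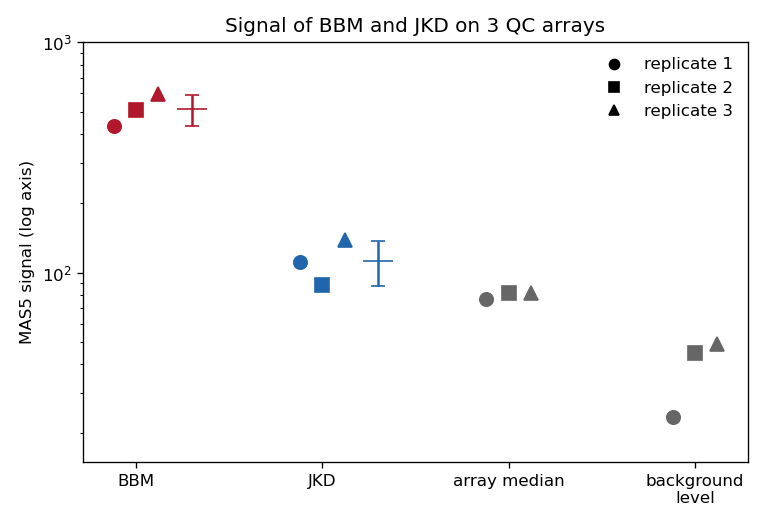
MAS5 signal (log axis) of BBM and JKD on the 3 QC arrays, beside the median of all probe sets and the background level of each array. Symbols mark replicates and the bars at the right of each gene give the mean ± SD. BBM lay between 434 and 595, and JKD lay between 88.1 and 138, above the array medians of 76.9 to 81.4.

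**Figure D2:**
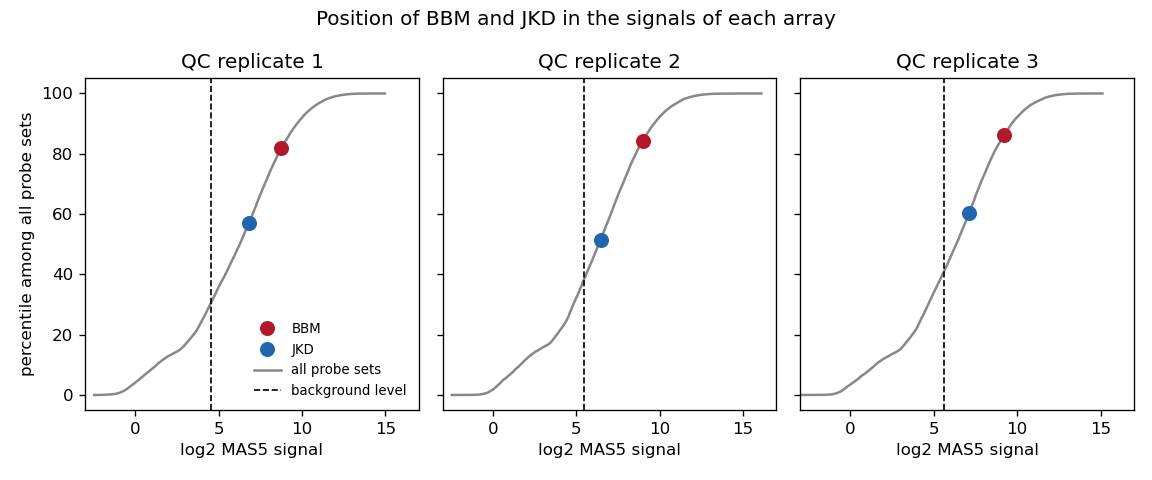
Cumulative distribution of log2 MAS5 signal over all probe sets of each array (percentile against log2 signal), with BBM, JKD and the background level of the array marked. BBM sat at percentiles 81.8 to 86.3, on the upper shoulder of the curve. JKD sat at 51.5 to 60.3, on its steep part.

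Whether these signals exceeded what genes of other organs gave was asked next. For each array a background level was set at the 90th percentile of the log2 signals of a panel, 6 probe sets of genes known from pollen, the tapetum or the shoot meristem (ANX1, ANX2, MGH3, A9, AMS and CLV3). It was 4.56 in replicate 1, 5.49 in replicate 2 and 5.61 in replicate 3 on the log2 scale. BBM exceeded it by 4.20, 3.50 and 3.60 log2 in replicates 1 to 3, and JKD exceeded it by 2.24, 0.97 and 1.49 log2. Each member was higher than all 6 panel probe sets on each of the 3 arrays. The level itself was lowest in replicate 1, and both members stood farthest above it there although the signal of BBM was lowest on that array.

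Both members were called above background by limma. BBM lay 3.77 ± 0.38 log2 above it (SD, n = 3, limma adjusted p = 1.5e-20). JKD lay 1.57 ± 0.64 log2 above it (SD, n = 3, limma adjusted p = 0.00102). The spread of the level (SD 0.58 log2) came from 3 arrays and was shared by all probe sets, yet the fit treated it as known. These p-values are therefore too small to be taken at face value. With no variance trend in the fit, the limma adjusted p was 2.1e-07 for BBM and 0.0115 for JKD. Of the 22740 probe sets tested, 50.5% were called above and 23.1% below, so a call above background was the most frequent outcome and does not set the pair apart. The median probe set lay 1.07 log2 above the level, against which BBM was much higher and JKD only somewhat higher. When the level was raised in steps, the call of BBM still held at 2.95 log2 and ended at 3, whereas that of JKD held at 0.6 log2 and ended at 0.65. With the level raised by 1 log2 JKD was at 0.57 (limma adjusted p = 0.245).

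Further sets of probe sets gave a reference that did not rest on the panel. Of the 989 probe sets that named a pseudogene, 99.8% had a lower signal than BBM in replicates 1 and 2 and 99.9% in replicate 3. For JKD these shares were 98.8% in replicate 1, 98.1% in replicate 2 and 99.0% in replicate 3. All 27 probe sets for bacterial transcripts of Bacillus subtilis were lower than either member on every array. JKD was thus near the middle of all probe sets but above nearly all of those for pseudogenes. With a background level taken from the pseudogenes, 60.0% of the probe sets tested were called above. Their median was 1.65 log2 over that level and JKD was at 1.98. With a level from the Bacillus controls 62.3% were called above, the median was 2.06 log2 and JKD was at 2.57. These references therefore do not set JKD apart from other probe sets.

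Both members varied between arrays about as much as other probe sets of similar signal. On the log2 scale the SD of BBM was 0.23, while the 1079 other probe sets with a mean within 0.25 log2 of it had a median SD of 0.21, and 57.3% of them varied less. The SD of JKD was 0.32 beside a median of 0.31 over 1524 such probe sets, of which 54.3% varied less. The widest step of BBM was that between replicates 3 and 1, 0.45 log2, and 22.7% of its neighbours in signal differed at least as much between these arrays. The widest step of JKD was that between replicates 3 and 2, 0.65 log2, reached or passed by 20.2% of its neighbours. With 1 array per sample, such steps have no replicate and were not tested.

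**Figure D3:**
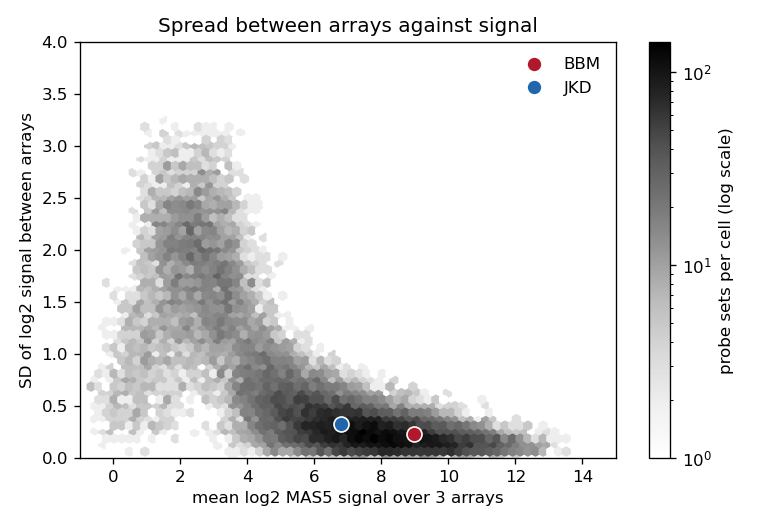
SD of log2 signal between the 3 arrays against mean log2 signal, with the shade giving the number of probe sets and BBM and JKD marked. Both lie within the dense band of probe sets, BBM at an SD of 0.23 and JKD at 0.32, far from the scattered values of low signals.

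Control probe sets moved between arrays as well. The ratio of 3′ to 5′ signal of actin, a measure of how complete the labelled copies were, was 1.80 in replicate 1, 1.56 in replicate 2 and 2.10 in replicate 3, and that of GAPDH was 1.55, 1.31 and 1.72. JKD had the same order over the arrays, lowest in replicate 2 and highest in replicate 3. An older pair of actin probe sets shared that order at 22.5, 14.1 and 38.7. The other 3 ratios did not, which were 3.78, 3.49 and 2.78 for ubiquitin, 2.31, 1.84 and 1.96 for an older GAPDH pair and 5.57, 5.81 and 4.53 for an older ubiquitin pair. The part of RNA quality in the spread of JKD was not tested. The median signal of the spike-in controls was 2771, 6518 and 3701 in replicates 1 to 3, an order that neither member shared.

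The genes whose deviations over the arrays were most like those of the members were then sought among the 6092 other probe sets of 1 gene called above background. For BBM the nearest was APS4, an ATP sulfurylase of sulfate assimilation, with signals of 254, 296 and 350 in replicates 1 to 3 and a distance of 0.0079 log2. AT5G58740 (0.011) and AT1G03920 (0.013) followed. For JKD the nearest were AT5G16220 (0.0089), AT5G61170 (0.013) and AT5G51400 (0.015). In all, 176 probe sets lay within 0.1 log2 of BBM and 94 within that distance of JKD. A pattern over 3 arrays is thus shared by many genes, and no relation between these genes can be read from it.

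Few relatives and partners of the members could be read. Of the 8 listed genes of the PLETHORA clade and the related ANT, BBM was the only one for which a probe set naming it alone was found. PLT1, PLT2 and the others were not analysed here. AIL1 matched no locus by its symbol, so its probe sets were not looked up. Of the 16 listed BIRD genes BIB, IDD6 and IDD13 were likewise not looked up, and 2 were measured. Besides JKD this was IDD16, whose signals were 7.15, 37.4 and 14.7 in replicates 1 to 3. It lay below the background level on every array but was not called, at -1.24 ± 0.85 log2 (SD, n = 3, limma adjusted p = 0.123). It was called below in 4 of 15 alternatives, with limma adjusted p of 0.0376 at the 95th percentile of the panel, 0.00464 with the level raised by 1 log2, 0.0407 with an offset of 16 and 0.0451 without a variance trend. IDD16 had its highest signal in replicate 2, where JKD had its lowest. With every signal of IDD16 below the background level, no relation to JKD can be read from that order.

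Among the partners of JKD, SCL23 was the measured gene of the SHR and SCR pathway, 1 of 6 listed. SCL23 is a GRAS protein closely related to SCR. Its signal was 79.8, 66.2 and 59.2 in replicates 1 to 3, and at 0.86 ± 0.79 log2 relative to the background level it was not called (SD, n = 3, limma adjusted p = 0.111). It was called above in 5 of 15 alternatives, which were the 75th percentile of the panel, the panel without AMS, 1 common level, and pseudogenes or Bacillus controls as the background. TRY, an R3 MYB protein that represses the hairless fate, was the measured gene of the epidermal patterning that JKD acts on, 1 of 11 listed. Its signal was 43.0 in replicate 1, 59.1 in replicate 2 and 18.3 in replicate 3, and it was not called at -0.05 ± 1.21 log2 (SD, n = 3, limma adjusted p = 0.942). TRY was lowest in replicate 3, where both members were highest, but it lay there at -1.42 log2 relative to the background level. No relation to the members can be read from such a value.

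Of 13 other listed niche regulators 3 were measured, which are the MADS-box gene AGL42, the receptor kinase gene ACR4 and CLE40, which encodes a peptide perceived by ACR4. AGL42, an established QC marker, had a signal of 62.8, 96.7 and 90.5 in replicates 1 to 3 and lay 1.14 ± 0.27 log2 above background (SD, n = 3, limma adjusted p = 0.0267). That call held without replicate 1 (limma adjusted p = 0.00328) but ended when replicate 2 was left out, at 0.219, or replicate 3, at 0.117. AGL42 lay 1.00, 1.15 and 1.26 log2 above background without replicates 1, 2 and 3, with standard errors of 0.32, 0.82 and 0.73. The call thus changed with the standard error. It held in 10 of 15 alternatives in all. ACR4 was called above at 1.91 ± 0.83 log2, and CLE40 was not called at 0.08 ± 1.34 log2, though it was called above with Bacillus controls as the background. Over the lists without BBM and JKD, 6 of 74 genes were measured, of which 2 were called above background, 0 below and 4 were not called. Of all probe sets tested, 50.5% were called above and 23.1% below, and 6 genes are too few to set beside these shares. The median of the 6 genes was 0.47 log2 over background, against 1.07 over all probe sets tested.

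**Figure D4:**
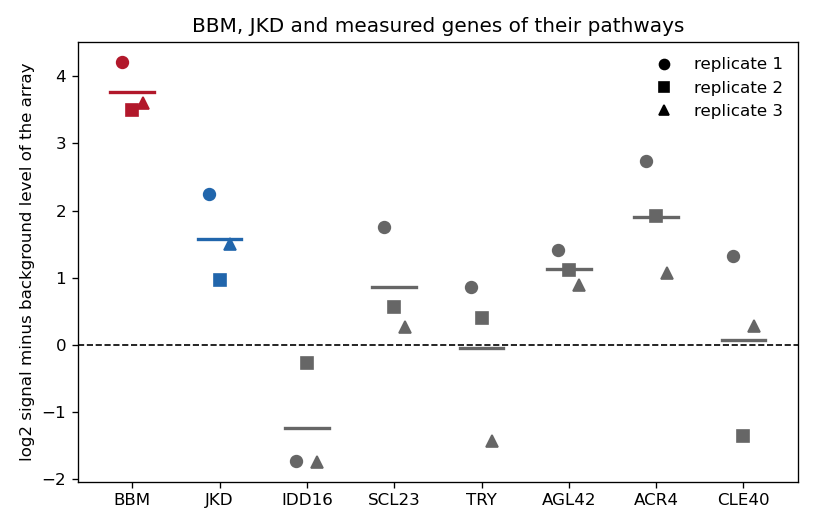
Log2 signal minus the background level of the array for BBM, JKD and the 6 measured genes of their pathways. Symbols mark replicates, the short lines give means and the dashed line is the background level. BBM (3.50 to 4.20) and JKD (0.97 to 2.24) lay above the level on every array, as did SCL23, AGL42 and ACR4, whereas IDD16 lay below it on every array.

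The QC label could be checked only in part. Of 6 defining markers, AGL42 and BBM itself were measured, and both were called above background. BBM is the gene under study, and AGL42 lay near the middle of the arrays, at percentiles 46.5, 53.4 and 51.9 in replicates 1 to 3. AGL42 was at 1.14 log2 over background, where the median of all probe sets tested was 1.07. The called markers of other cell types lay higher, from 1.36 (PHV) to 3.61 log2 (LHW), so these calls say little about the label. WOX5, the gene whose promoter drove the reporter, was not analysed here. Of 24 listed markers of other root cell types 9 were measured and 8 were called above background, where 50.5% of all probe sets tested were. The lists were chosen with earlier results of these data known, so the 8 calls cannot be weighed against that share. Among the called markers were the root hair expansin EXPA18 at 3.59 log2, the endodermal receptor kinase gene GSO1 at 3.42 and LHW of the vascular cylinder at 3.61. LBD29 was not called. The summed signal of the 9 markers was 2133, 2153 and 2211 in replicates 1 to 3, highest in replicate 3 as were both members. The single markers did not share 1 order. EXPA7, OPS and LHW (412, 391 and 586) were highest in replicate 3, whereas EXPA18, ACR4, PHV and LBD16 were lowest there. ACR4, listed here for the columella and root cap, was also counted among the niche regulators, so its call speaks for neither list alone. The part of other cell types in the signals of BBM and JKD was not tested. In such pooled samples, fewer cells of a type and less RNA per cell cannot be told apart.

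BBM was also placed among the markers that the study chose for the QC. That list was selected partly on the study's new QC array profiles, the ones examined here, so a high position of its genes is not independent evidence. It was taken here as the marker genes whose highest specificity score was for the QC. It held 24 genes, and the 10 that were measured had mean percentiles from 69.4 to 87.1, with a median of 83.6. BBM was in the middle of them at 84.1, with 4 genes higher and 5 lower. JKD was in none of the study's marker lists for root tissues.

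**Figure D5:**
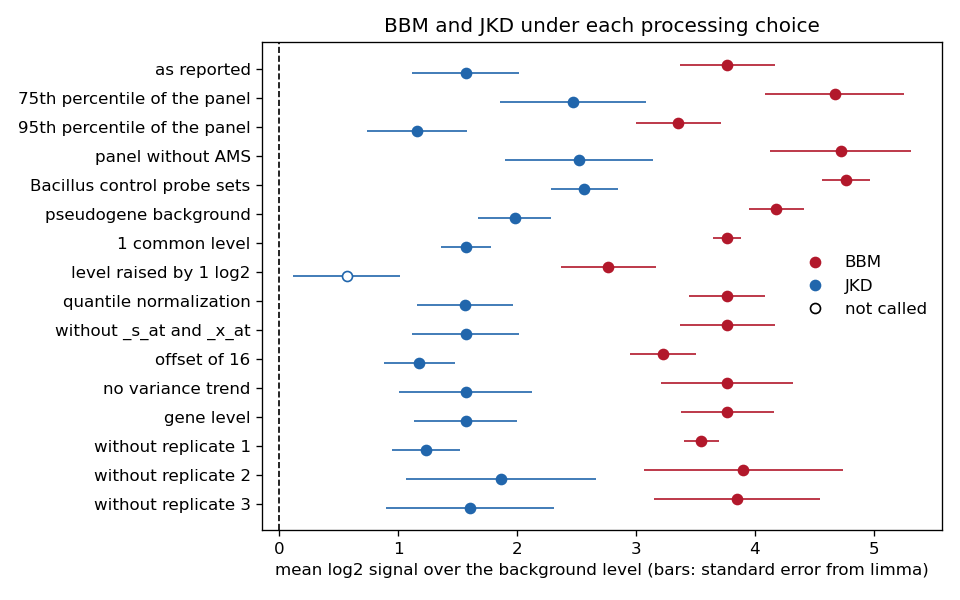
Mean log2 signal of BBM and JKD over the background level under each processing choice, with the standard error from limma as a bar. Filled points were called above background and the open point was not. BBM ranged from 2.77 to 4.76 log2 over the alternatives and JKD ranged from 0.57 to 2.57 log2, with the lowest value of each at the level raised by 1 log2.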

How the data were processed

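RNA from 3 samples of sorted protoplasts was hybridised to 1 ATH1 array each. The authors deposited MAS5 signals, that is a linear intensity for each probe set, whose mean without the outer 2% at each end was 250 on every array. Version, settings and detection calls of MAS5: not given in the sources used here. The number of arrays limits the precision.

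Probe sets were named by the annotation of the platform, with symbols updated from RefSeq (TAIR10.1). Of 22810 probe sets, 13513 named 1 gene (13436 matched), 503 several and 8730 none, and 64 were controls. A9 (AT5G07230) and a few ambiguous symbols were matched by locus. The symbols AIL1, BIB, IDD6, IDD13, RGFR1, RGFR2, RGFR3 and CO2 matched no locus. These genes count as listed but not measured, although the array may hold probe sets for them.

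Signals were taken to log2 with no offset. Each probe set's log2 signal minus the background level was tested against 0 in limma 3.58.1 (R 4.3.3) with an intercept model, eBayes with trend, two-sided, and Benjamini-Hochberg adjustment over 22740 probe sets (threshold 0.05). Controls and panel were left out. The prior degrees of freedom were infinite, so the spread came wholly from the trend, and the error of the level (SD 0.58 log2 between arrays) is shared by all probe sets. The fit was also run on simulated data, drawn with independent noise around a fixed level. That run left out the shared error of the level, so it cannot show the error rate of these calls. A percentile is the share of an array's probe sets with a lower signal. Likeness was the Euclidean distance of log2 deviations from a gene's own mean over 3 arrays, and the 3 nearest genes were named together with every measured gene of the lists.

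The members and lists were chosen with earlier results of these data known. Alternatives were other panels, levels, scalings, offsets and variance models, the gene level and leaving out each replicate. Raising the level in steps of 0.05 log2 was added after the data were seen.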

Additional observations from a re-analysis of the deposited data

How the results depend on the processing

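BBM stayed above background under all 15 alternatives, and JKD did so in 14 of 15. JKD was at 0.57 log2 with the level raised by 1 log2, where its call ended because the level was higher. Leaving out 1 replicate gave 3.55 to 3.90 log2 for BBM (limma adjusted p from 4.4e-122 to 2.0e-05). For JKD it gave 1.23 to 1.87 log2 (limma adjusted p from 3.3e-05 to 0.0378). The standard error of BBM was 0.15 without replicate 1, whose background level was the lowest, 0.84 without replicate 2 and 0.70 without replicate 3. These p-values thus depended on how close the levels of the remaining arrays were, and they do not measure how well a member's signal was reproduced. Among probe sets naming 1 gene and among genes, the mean percentile of BBM was 87.6 in both and that of JKD was 61.5 in both. Without 1 replicate these percentiles ranged from 83.0 to 85.3 and from 54.2 to 58.6.

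At the gene level 6051 were above and 3414 below background, with fewer features tested, beside 11488 and 5248. Those below numbered 2415 at the panel's 75th percentile, 2285 without AMS and 2608 with Bacillus controls. Of all calls, 68.6% lay above as reported, against 84.2%, 85.0% and 84.5% in these 3 settings and 53.0% at the raised level. The median over all probe sets was 1.07 log2 and ranged from 0.07 at the raised level to 2.06 with Bacillus controls, and the members shifted with it.

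Of the 6 other pathway genes, 1 was above without a variance trend, with the raised level and at the 95th percentile, and 4 with Bacillus controls. The count was 1 to 2 without 1 replicate. SCL23, TRY and CLE40, none of them called as reported, turned direction, whereas IDD16 was negative in all 15 alternatives. SCL23 was at -0.14 at the raised level. TRY was at 0.85 at the 75th percentile, 0.90 without AMS, 0.94 with Bacillus controls and 0.36 with pseudogenes, and from -0.51 to 0.63 without 1 replicate. CLE40 was at -0.33 at the 95th percentile and -0.92 at the raised level, and from -0.54 to 0.80 without 1 replicate. A changed level moved every gene by the same amount, so the turns under other levels followed from the level alone. The cause of the turns without 1 replicate was not tested. No paired analysis was possible because there was 1 group.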
